A study of Mus musculus with 2 samples.

Results

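The interferon-inducible IRG and GBP GTPases were examined in intestinal preparations of wild-type (WT) mice and mice lacking the leucine-rich repeat receptor gene Lrrc19 (Lrrc19 KO). The study names these preparations gut epithelial cells, although smooth muscle and fibroblast transcripts were bright in both pools. The 10 genes were taken by their symbols in the platform annotation and were chosen with earlier results of these data known. They are the immunity-related GTPases (IRGs) Iigp1, Tgtp1, Ifi47, Irgm1, Irgm2, and Igtp and the guanylate-binding proteins (GBPs) Gbp2, Gbp3, Gbp6, and Gbp7, out of 18194 genes that had a probe set of their own. Between them they have 14 probe sets, all of which were used. Of the 10 genes, 9 have at least 1 probe set of their own, and Tgtp1 is read from a probe set that the annotation also assigns to Tgtp2, so its values cannot be given to either gene alone. The study compared 1 Affymetrix array per genotype. Each array carried total RNA pooled in equal amounts from 5 C57BL/6 mice, 2 males and 3 females, that were 6 wk old and had been kept specific pathogen free, and the KO mice differed by the lrrc19 knockout. Epithelium was released from the intestine with EDTA, and CD8 and CD4 cells, macrophages, dendritic cells, and B cells were then depleted by magnetic sorting. With 1 array of pooled RNA for each genotype, nothing is known of how mice of a genotype vary, so no test was run, and the small number of arrays limits how precise any value is.

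IRGs and GBPs are GTPases made in large amounts when cells sense interferon, above all IFNγ, which signals through its receptor and JAK kinases. They defend cells against bacteria and parasites that live inside them. The IRG effectors bind to the membrane of the vacuole that holds the microbe and help to break it, whereas the IRGM proteins (Irgm1, Irgm2, and Igtp, also named Irgm3) sit on the host's own membranes and keep the effectors inactive there. GBPs coat vacuoles and free bacteria and help to trigger inflammasomes. In the gut, these genes are expressed both by epithelial cells and by leukocytes under the influence of the microbiota.

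All 14 probe sets of these GTPases showed less signal in Lrrc19 KO than in WT, although by very different amounts. The difference was largest in the effectors Iigp1 and Tgtp1/Tgtp2, smaller in Ifi47, in the IRGM proteins, and in Gbp3 and Gbp6, smaller again in Gbp2, and close to 0 in Gbp7. Values are intensities on a linear scale in arbitrary units, and differences are log2 values, Lrrc19 KO minus WT. A gene with several probe sets was represented by the brightest. The floor, which is the median of all probe set values and equals an intensity of 127, was passed by every member in both pools. On this scale the 10 genes had a median log2 difference of -0.53, compared with 0.01 for all 12518 genes that reached the floor in at least 1 pool. In bulk RNA, fewer cells of a type and less RNA per cell cannot be told apart.

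Iigp1 (also named Irga6), the best studied IRG effector, differed most. Its brighter probe set read 1785 in WT against 537 in KO (3.32-fold lower). Its other probe set read 1042 against 347 (3.00-fold lower). The probe sets thus gave log2 differences of -1.73 and -1.59. The gap between them, 0.15, was smaller than the median gap of 0.18 of the 2877 genes that have 2 probe sets above the floor on both arrays. The probe set shared by Tgtp1 (Irgb6), an effector that arrives early on the parasite vacuole, and Tgtp2 was at 940 in WT and 399 in KO, or 2.36-fold lower. Ifi47 (Irgd), the third effector, was brighter than the floor by a wide margin in both pools. It was at 2823 in WT and 1989 in KO, or 1.42-fold lower, so it stood with the IRGM proteins in size of difference rather than with the other effectors.

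The IRGM regulators lay close together. Irgm1, which is needed for resistance to mycobacteria and for survival of dividing lymphocytes, was at 1275 in WT and 792 in KO (1.61-fold lower). Irgm2 was at 1186 in WT and 805 in KO (1.47-fold lower). Igtp was at 2203 in WT and 1607 in KO (1.37-fold lower). Their log2 differences, -0.69, -0.56, and -0.45, spanned a range narrower than the robust SD of 0.27 of all genes, so no order among them is read from these arrays.

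**Figure D1:**
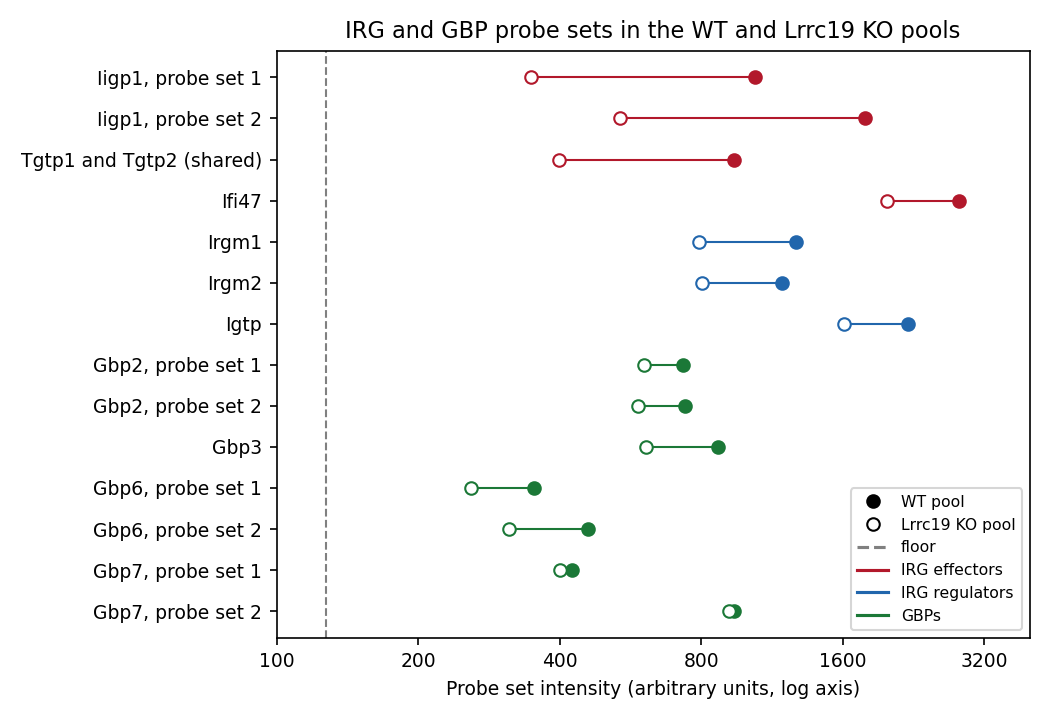
Intensity (log axis, arbitrary units) of the 14 probe sets of the IRG and GBP genes, with filled points for WT and open points for Lrrc19 KO, 1 array per genotype and no error bars. Every open point lies to the left of its filled point and to the right of the floor of 127 (dashed), and the line joining them is longest for Iigp1 and shortest for Gbp7.

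The GBPs differed less than the effectors Iigp1 and Tgtp1/Tgtp2. Gbp6 was at 460 in WT and 312 in KO on its brighter probe set (1.47-fold lower) and at 352 and 259 on the other (1.36-fold lower). Gbp3 was at 867 in WT and 611 in KO (1.42-fold lower). Gbp2, which acts at Toxoplasma vacuoles and on cytosolic bacteria, was at 732 in WT and 604 in KO on one probe set and at 739 and 587 on the other, so the fold was 1.21 and 1.26. Gbp7 was nearly level between the pools, at 940 in WT and 917 in KO on one probe set and at 424 and 400.2 on the other. Its log2 differences were -0.04 and -0.08, and the sign of the first turned with the scaling (0.08 when both arrays were centred on 8 control genes and 0.01 after quantile normalization). The gap between the probe sets of a gene was 0.05 for Gbp2, 0.12 for Gbp6, and 0.05 for Gbp7, each under the median gap of 0.18. The probe sets of Gbp7 and those of Iigp1 therefore lay further apart between the genes than within either gene.

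Over the 10 genes, 2 were at least 2-fold lower in KO (Iigp1 and Tgtp1/Tgtp2), where 0.407% of all genes were, and 3 were at least 1.5-fold lower (with Irgm1), where 3.4% of all genes were. None was at least 1.5-fold higher, where 2.78% of all genes were. All 10 were lower by some amount, compared with 47.9% of all genes. At the level of probe sets, 3 of 14 were at least 2-fold lower (0.457% of 23611 probe sets), 4 were at least 1.5-fold lower (3.48%), and 14 were lower by some amount (46.8%). Since the members were chosen with earlier results of these data known, an excess over these shares describes them and tests nothing. Counted from the largest decrease, with values under the floor raised to it, Iigp1 was gene 7 of 12518. Irgm1 was gene 234, Gbp6 443, Irgm2 448, Ifi47 616, Gbp3 618, Igtp 779, Gbp2 1952, and Gbp7 5313. Among the 5897 genes with mean intensities within the range of the members, 4.24% were at least 1.5-fold lower. Irgm2 and Gbp6 lay just short of 1.5-fold, and with both arrays set to the same median, which moves every log2 difference by -0.08, 6 members passed it (Ifi47 in addition) beside 5.23% of all genes. Centring on the 8 control genes moves every difference by 0.12, and 2 members then passed 1.5-fold beside 1.79% of all genes. Of these controls, Gusb was itself 1.59-fold lower in KO as deposited (428 in WT and 269 in KO). Scaling on the 18 hybridization spike-in probe sets, an alternative chosen after the data had been seen, moves every difference by about as much as the spike-ins differed (0.50 brighter in KO). It put 9 members past 1.5-fold, beside 36.0% of all genes, with a member median of -1.03 and a median of -0.49 over all genes.

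**Figure D2:**
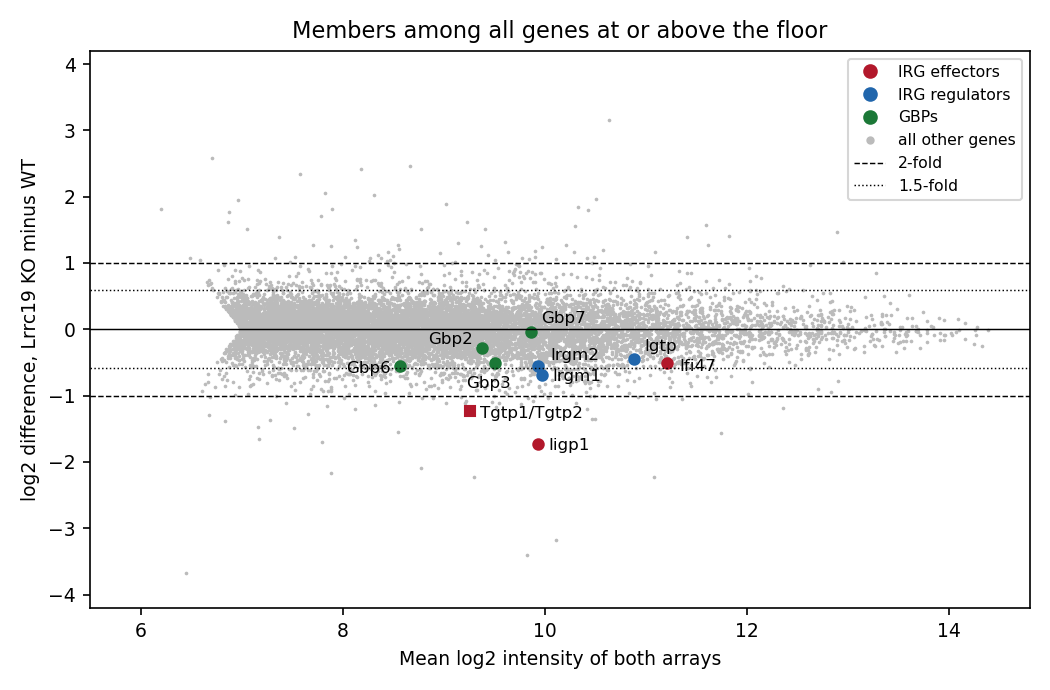
Log2 difference (Lrrc19 KO minus WT) against the mean log2 intensity of both arrays for the 12518 genes at or above the floor (grey) and the IRG and GBP genes (coloured by class; the square is the probe set shared by Tgtp1 and Tgtp2), with dashed lines at 2-fold and dotted lines at 1.5-fold. Iigp1 and Tgtp1/Tgtp2 lie under the lower dashed line, and Gbp7 lies near 0.

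Interferon acts on promoters through 2 kinds of short site, the interferon-stimulated response element (ISRE), to which IRF proteins bind, and the gamma-activated site (GAS), named for its part in the response to IFNγ. The promoters of the members were searched because the genes were lower together but to unequal extents. Promoter windows from 250 bases before to 50 bases after the annotated start were taken from RefSeq (GRCm38.p6), which held 8 of the 10 members by symbol, with no entry for Iigp1 or Gbp6. The letters searched were GAAA, any 2 bases, and GAAA again for the ISRE, on both strands, and TTCNNNGAA, where N is any base and which reads the same on both strands, for the GAS. The following stretches are shown because the letters and their spacing are shared between members. They are written along the strand of the gene, with the matched letters, free positions included, in capitals.
Tgtp1, chr11:48992302-48992346, minus strand: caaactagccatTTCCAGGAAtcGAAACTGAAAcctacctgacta
Tgtp2, chr11:49064261-49064305, minus strand: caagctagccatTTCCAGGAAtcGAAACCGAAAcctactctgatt
Igtp, chr11:58199499-58199543, plus strand: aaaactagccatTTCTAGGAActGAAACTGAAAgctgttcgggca
Irgm2, chr11:58214890-58214934, plus strand: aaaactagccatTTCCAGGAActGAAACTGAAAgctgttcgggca
Irgm1, chr11:48871423-48871462, minus strand: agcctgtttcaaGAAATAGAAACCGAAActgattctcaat
Gbp2, chr3:142620592-142620625, plus strand: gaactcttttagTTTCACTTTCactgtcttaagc
Gbp3, chr3:142559987-142560026, plus strand: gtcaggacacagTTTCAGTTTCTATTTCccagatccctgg
Gbp7, chr3:142530218-142530304, plus strand: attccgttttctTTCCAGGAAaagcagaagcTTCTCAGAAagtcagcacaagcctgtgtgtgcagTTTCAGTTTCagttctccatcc

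An ISRE match was present in 7 of the 8 members with a window (Tgtp1, Igtp, Irgm2, Irgm1, Gbp2, Gbp3, and Gbp7), compared with 3.99% of 27025 genes with a window. A GAS match was present in 4 of them (Tgtp1, Igtp, Irgm2, and Gbp7), compared with 9.55% of genes. In the GBPs the ISRE letters lay on the opposite strand, as TTTC, any 2 bases, and TTTC again. In Irgm1 and Gbp3 the ISRE matches came in pairs that share 4 bases. In Tgtp1, Igtp, and Irgm2, and also in Tgtp2, the GAS stood directly before the ISRE, with 2 bases between them, so that the first bases of the motifs were 11 apart. The spacing was taken from these same promoters, so these members were certain to match it. This arrangement was found in 5 of the 27025 genes, the fifth being the predicted gene Gm12185. The GAS of Tgtp1 began at -88 from the annotated start, that of Irgm2 at -75, and that of Igtp at -45. Over the 45 bases shown, Igtp and Irgm2, which neighbour each other on chromosome 11, were identical at 44 positions, Tgtp1 and Tgtp2 at 37, and Irgm2 and Tgtp1 at 34. Ifi47 held neither set of letters in its window. Such a match is a description of the sequence, not of binding. The members are interferon-inducible by choice and some of these promoters are near copies, so their shares of matches describe them and test nothing.

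Members with like motifs differed by unequal amounts between the pools, on 1 array per genotype. Iigp1, with the largest difference, and Gbp6 had no window, so an ordering by motif could not be examined over all members. The part of the motifs in the differences was not tested. Tgtp1/Tgtp2 and the pair Igtp and Irgm2 share the same arrangement. The log2 differences were -1.24 on the probe set shared by Tgtp1 and Tgtp2, -0.45 for Igtp, and -0.56 for Irgm2. Gbp7 has an ISRE and 2 GAS matches and was nearly level between the pools, whereas Ifi47, with no match, was at -0.50. Gbp7 and Gbp3 are next to each other on chromosome 3 and were at -0.04 and -0.50.

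**Figure D3:**
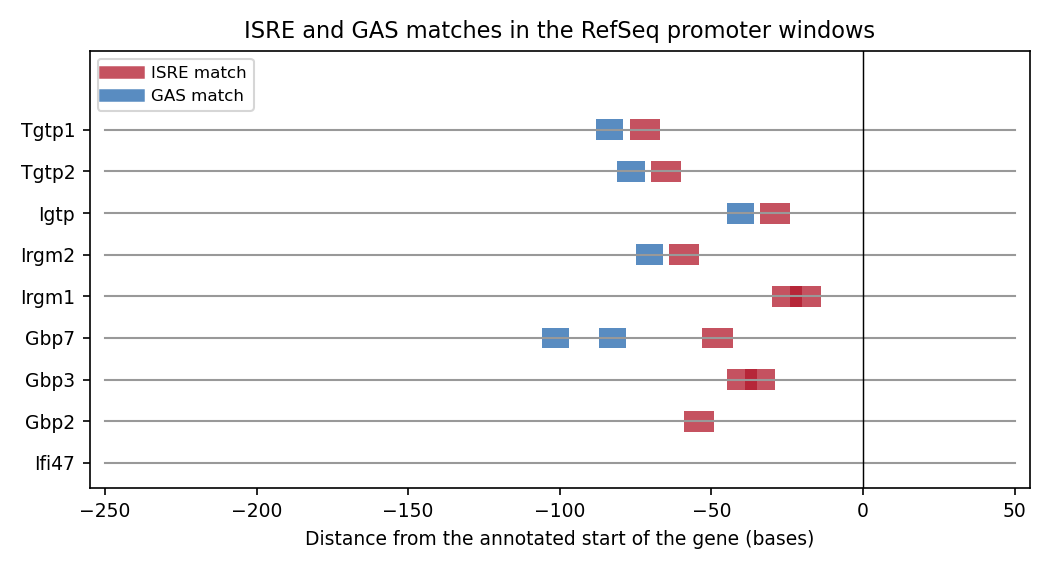
Positions of ISRE (red) and GAS (blue) letter matches in the RefSeq promoter windows of 8 members and of Tgtp2, as distance in bases from the annotated start (vertical line), with darker red where ISRE matches overlap. A GAS lies directly upstream of an ISRE in Tgtp1, Tgtp2, Igtp, and Irgm2, and Ifi47 has no match.

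Relatives of these GTPases outside the 10 did not all run the same way. Gm4951, an IRG gene of the same gene cluster as Iigp1, read 184 in WT and 70.7 in KO. Since the latter lies below the floor, only a bound can be given, at least 1.45-fold lower. Gbp2b, which lies between Gbp3 and Gbp2, did not reach the floor (105 in WT and 82.9 in KO), nor did Gbp8 (95.4 and 120) and the probe set that Gbp8 shares with Gbp4 (86.9 and 95.4). The dynamin-like antiviral GTPase Mx1 was under the floor in WT (80.9) and above it in KO (158), at least 1.24-fold higher, and Mx2 was at 241 and 266. A probe set assigned to Gvin1, a very large interferon-inducible GTPase, and to Gm4070 was higher in KO (2108 in WT and 2924 in KO, a log2 difference of 0.47). Irgc1, an IRG of the testis, was at a log2 difference of 0.26, and Irgq at -0.06. Of the 21 relatives listed, 7 had a probe set of their own and 5 reached the floor, with a median log2 difference of 0.14. With values under the floor raised to it, 0 of the 5 differed by 1.5-fold in either direction.

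Genes that lead to the induction of IRGs and GBPs were mostly near level between the pools. IFNγ itself, Ifng, did not reach the floor (42.7 in WT and 48.6 in KO), nor did Ifnb1 (28.6 and 25.7). The chain that binds IFNγ, Ifngr1, read 2219 in WT against 2507 in KO. Its partner Ifngr2 was at 1922 and 1853. Of the type I receptor chains, Ifnar1 was at 327 and 291 and Ifnar2 at 460 and 296 (1.55-fold lower), although the other probe sets of Ifnar2 were under the floor and differed in sign (0.14 and -0.16). The IFN-λ receptor chain Ifnlr1, through which the epithelium responds to type III interferon, was at 181 and 193. The kinase Jak1 was at 577 in WT and 519 in KO, with probe sets from -0.15 to 0.41, and Jak2 was at 1456 and 1941. Irf1, a transcription factor that drives IRG and GBP genes and is itself induced by IFNγ, was at 2627 in WT and 3080 in KO. Its log2 difference of 0.23 was smaller than the robust SD of 0.27 of all genes, so no direction is read from it. The inhibitor Socs1, another target of IFNγ, was at 160.9 in both pools. Usp18, which restrains type I signalling, was at 1117 in WT and 747 in KO (a log2 difference of -0.58), just short of 1.5-fold, and Socs3 was at 175 and 260 (0.57). Of 6 receptor chains 1 was at least 1.5-fold lower, and of the 5 ligands and inducers, 14 kinases and transcription factors, and 8 inhibitors that reached the floor, none passed 1.5-fold. The medians of these lists were -0.04, 0.06, 0.05, and 0.07, and the sign of each depended on the scaling.

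The machinery with which these GTPases work was mostly near level on the brightest probe sets. The conjugation system of ATG8 proteins, which IRGs and GBPs need in order to reach their target membranes, had a median log2 difference of -0.03 over 11 genes, none past 1.5-fold. Atg5 was at 629 in WT and 645 in KO, although its other probe sets were lower in KO (-0.40 and -0.38). Atg7 was at 259 and 271 (0.11 and -0.26 on its other probe sets), and Gabarapl2 was at -0.36 (-0.10 on its other probe set). Of the inflammasome genes linked to GBPs, the lipopolysaccharide sensor Casp4 was at 998 in WT and 1087 in KO, the pore-forming protein Gsdmd at 1036 and 1250, and Casp1 at 3201 and 2680. None of 6 passed 1.5-fold, and the adaptor Pycard was lowest (-0.50).

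Other targets of interferon were lower too, but not throughout. Of 22 IFNγ-induced genes that are not GTPases, 7 were at least 1.5-fold lower and none was higher when values under the floor were raised to it, beside 3.14% and 2.46% of all genes counted in the same way. Their median log2 difference was -0.29 on that scale and -0.39 with the values as deposited. The 5 with both values above the floor were the immunoproteasome subunits Psmb9 (-0.95) and Psmb8 (-0.85), the chemokine Ccl8 (-0.90), the proteasome activator subunit Psme1 (-0.66), and the peptide transporter Tap1 (-0.60). The chemokine Cxcl9 (500.0 in WT) and the tryptophan-degrading enzyme Ido1 (238 in WT) were under the floor in KO, at least 3.93-fold and 1.87-fold lower, but the other probe set of Cxcl9 was at -0.19. The chemokine Cxcl10 (146 in WT) was under the floor in KO as well and was at least 1.15-fold lower. In the same list Irf1, Socs1, Nlrc5 (0.13), and Cd274 (0.27) were not lower. Of 35 antiviral interferon-stimulated genes, 9 were at least 1.5-fold lower and none was higher, with a median of -0.32, all 9 with both values above the floor. The 6 with the largest decrease were Bst2 (-1.18), Ifitm3 (-0.86), Epsti1 (-0.81), Zbp1 (-0.75), Xaf1 (-0.74), and Ifi27l2a (-0.71), and the other probe sets of Epsti1 (0.09 and 0.01), Xaf1 (0.07), and Zbp1 (-0.18) did not show such a decrease. Ifit1 was at -0.12, and Rsad2 at 0.07 on its brightest probe set and at -0.48 and 0.18 on the others. The median of the IRG and GBP genes, -0.53, was lower than both medians, but the classes differed. The IRG members had a median of -0.62. The GBP members had a median of -0.39, level with the IFNγ-induced list as deposited (-0.39) and lower than the antiviral list (-0.32). The lists leave out shared probe sets, and without that of Tgtp1 and Tgtp2 the median of the members was -0.50. No test of these comparisons was possible, and the members and lists were chosen with earlier results of these data known.

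**Figure D4:**
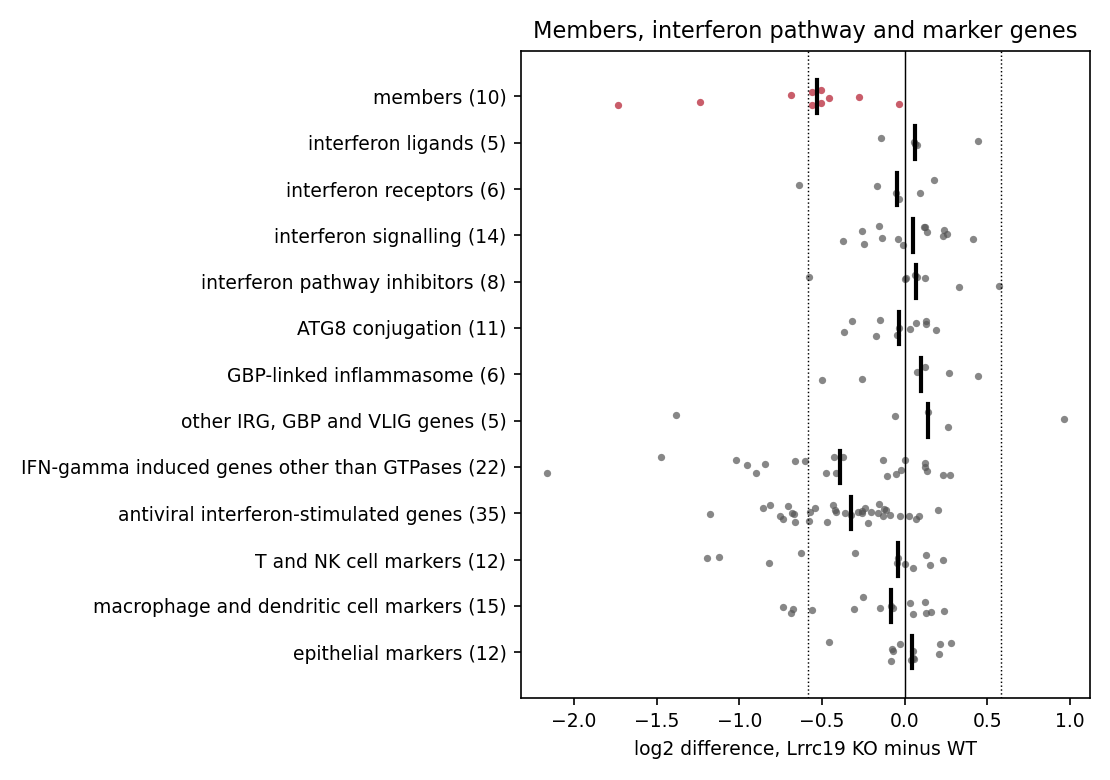
Log2 difference (Lrrc19 KO minus WT) of the 10 IRG and GBP genes (red) and of genes of the interferon pathway, partner, target, and marker lists (grey), 1 point per gene at or above the floor, as deposited also where 1 pool was under the floor, with the median as a black bar, the number of genes in parentheses, and dotted lines at 1.5-fold. The members (-0.53) and both lists of interferon targets (-0.39 and -0.32) lie to the left of 0, while ligands, receptors, and signalling genes lie around 0.

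Markers of the cell types that the pools could hold were read beside these differences. Lrrc19 itself was at 905 in WT and 212 in KO on its brighter probe set (4.26-fold lower). Its other probe set was at 391 in WT and at 20.9, under the floor, in KO. All 12 epithelial markers passed the floor and none differed by 1.5-fold (Epcam 12473 and 12915, summed intensity 104134 in WT and 107168 in KO, median log2 difference 0.04). Leukocyte transcripts remained in spite of the depletion. Of 21 T and NK cell markers, 18 had a probe set of their own and 12 reached the floor, with a summed intensity of 4216 in WT and 3207 in KO. Of these, 3 were at least 1.5-fold lower and none higher with values under the floor raised to it, namely Gzmb (420 and 184), Gzma (1278 and 587), and Cd3g (264 and 171). Nkg7 (132 and 74.99) was under the floor in KO and at least 1.04-fold lower. Cd3e (0.13) and Cd8a (0.23, and -0.10 and -0.29 on its other probe sets) were not lower on their brightest probe sets. Of 19 macrophage and dendritic cell markers, 15 reached the floor, with a summed intensity of 8187 in WT and 7031 in KO, and 2 were at least 1.5-fold lower, Adgre1 (606 and 363) and Fcgr3 (420.0 and 260.5). Aif1 (187 and 117) was under the floor in KO and at least 1.47-fold lower, and Csf1r was at -0.15. The median log2 differences were -0.04 for T and NK cells and -0.08 for macrophages and dendritic cells, and under the other scalings (that on spike-ins was not run for these lists), floors, and choices of probe sets they went from -0.56 to 0.08 and from -0.31 to 0.04, the lowest with the floor at the 75th percentile. Of 11 B and plasma cell markers 9 reached the floor, with a summed intensity of 19938 in WT and 20283 in KO and a median of 0.22 (-0.02 to 0.34), and 0 of them differed by 1.5-fold with values under the floor raised to it. All 8 smooth muscle markers were brighter in KO on their brightest probe sets (median 0.48), although the other probe set of Des was at -0.12. Their summed intensity was 57814 in WT and 76842 in KO, and Acta2 (12549 and 14996) was about as bright as Epcam. The 8 fibroblast markers summed to 25081 in WT and 26154 in KO (median 0.07). Endothelial markers, 7 of which reached the floor, summed to 2218 and 2010 (median -0.20). Of 6 colon markers 4 were at least 1.5-fold higher in KO, and all 5 ileum markers were lower, 2 of them by at least 1.5-fold. Of these 2, Osr2 was at 0.17 on its other probe set. The colon and ileum lists were chosen with their earlier values known. The part of these cell types and gut regions in the lower IRG and GBP values was not tested.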

How the data were processed

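Total RNA of 1 pool per genotype (5 mice each) was hybridised to Affymetrix mouse arrays. The intensity values deposited by the authors are linear, from 1 to 25842, 1 per array for each of 45101 probe sets. RMA is named in the submitters' processing notes without a version. RMA usually returns log2 values with equal distributions, and the medians here were unequal (124 in WT and 131 in KO), so the scaling between the arrays is unknown. On the KO array all 18 hybridization spike-in probe sets were brighter (median log2 difference 0.50). Genotypes were taken from the labels, and no other columns were used.

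Probe sets were named from the platform annotation. Those of several genes were left out of gene counts, except that the one of Tgtp1 and Tgtp2 is given and marked. The 64 control probe sets were left out. For a gene the brightest probe set was used, log2 was taken, and genes reaching the 50th percentile of all values (127) in 1 pool were kept. Called means at least 2-fold or 1.5-fold, with no test. The robust SD is the median absolute deviation, scaled as for a normal distribution. The steps were tested on simulated arrays, and Python 3.11.15 with pandas 2.3.3 was used. The members and gene lists were chosen with earlier results of these data known. Named in the interferon, GTPase, T and NK cell, and macrophage and dendritic cell lists were the genes past 1.5-fold, up to 6. Fixed members of the pathway were named too, and some others after their values were seen. In the B and plasma cell, smooth muscle, colon, and ileum lists not every gene past 1.5-fold was named. Protein sequences were not analysed here. The array values name no genome build, and coordinates are those of the RefSeq promoter table.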

Additional observations from a re-analysis of the deposited data

How the results depend on the processing

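The 9 alternatives chosen at the outset were a mean over all probe sets, leaving out probe sets that can match several transcripts, 3 other scalings, 2 other floors, raising values below the floor to it, and no floor. Under all of them 2 members stayed at least 2-fold lower. The median log2 difference of the members went from -0.61 to -0.41, and that of Iigp1 from -1.81 to -1.59. The count at least 1.5-fold lower was 6 with both arrays set to the same median and 2 with the control genes, and 3 otherwise. The percentage of all genes at least 1.5-fold lower was 3.40 as deposited, 5.23 with the same median, and 1.79 with the control genes, and that at least 1.5-fold higher was 2.78, 1.90, and 5.23. Of the 10 members, 9 were lower after centring on the control genes and after quantile normalization, Gbp7 being the exception, and 9 of 9 without probe sets that can match several transcripts, where Gbp3 has none left. The T and NK cell marker median was -0.56 when the floor was raised to the 75th percentile, where fewer genes remain. Scaling on the hybridization spike-ins, chosen after seeing the data and run for the members and for the shares of all genes, put 7 members at least 2-fold lower (beside 5.21% of all genes) and 9 at least 1.5-fold lower, with a median of -1.03, from -2.23 for Iigp1 to -0.53 for Gbp7. No paired analysis was possible because each genotype had 1 array, and no replicate could be left out.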

Other observations

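Outside the members, 356 genes at or above the floor had an ISRE match in their promoter window. Of these, 25 (7.02%) were lower in KO by 1.5-fold or more and 10 (2.81%) were higher by as much, while of the 9722 genes with a window but no match 3.33% were lower and 2.64% higher by that amount. The median log2 difference was -0.03 with and 0.01 without a match. For the GAS, 31 of 815 genes with a match and 318 of 9263 without were at least 1.5-fold lower. With both motifs in 1 window, 4 of 42 genes were lower and 0 were higher by at least 1.5-fold. Of the 10036 genes without both, 3.44% were lower and 2.66% higher by that amount. The median log2 difference was 0.01 in either group. These counts were made after the values had been seen, the known interferon targets are among the genes counted, and no test was run.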
